A study of Mus musculus with 6 samples.

Results

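Adult mouse hepatocytes from animals fed a diet with DDC were compared with those from normal fed animals, gene by gene, in 4 of the 6 samples of the series. All mice were of the FVB strain. The normal fed group held 2 samples from adults on chow, and the DDC fed group held 2 samples from adults that had received the DDC diet for 4 weeks. The remaining group, 2 samples of embryonic day 18 (E18) hepatocytes, each pooled from about 8 embryos, entered the fit only to estimate the spread. Outside the fit, the E18 samples also counted in the choice of genes tested and in the median-ratio scaling described below. Polyadenylated RNA was sequenced, and of the 48432 genes listed 14235 were tested. The labels do not say whether the samples of an adult group came from separate animals, so p-values measure only the spread between these samples, which may be technical. The deposited table numbers the samples of each group 0 and 1, and those numbers are kept.

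DDC (3,5-diethoxycarbonyl-1,4-dihydrocollidine) alkylates the heme of cytochromes P450, and the product inhibits ferrochelatase, the enzyme that inserts iron into protoporphyrin. Feeding it over weeks is a long-used model of porphyria, of duct injury with a ductular reaction, and of Mallory-Denk bodies, which are hepatocyte inclusions built from keratins 8 and 18 and the ubiquitin-binding protein p62. The diet therefore touches heme and iron handling, protein quality control, detoxification, inflammation and scarring, and the genes below are ordered by these roles.

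Values are TPM, transcript abundances scaled to a sum of 1000000 over the genes of a sample, and are given for normal fed samples 0 and 1 and then for DDC fed samples 0 and 1. A difference is DDC fed minus normal fed on the log2(TPM + 1) scale ± SE with n = 2 samples a group, and a gene rose or fell where limma gave a Benjamini-Hochberg adjusted p under 0.05. The scale understates the change of genes near 0. Depth is unknown, since TPM keep no record of read counts. A list of genes is described by how many of its tested members rose or fell, and by the median difference, against the same over all genes tested.

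Against normal fed samples 4895 genes rose in DDC fed samples (34.4% of those tested) and 428 fell (3.01%). In each of these genes both DDC fed samples lay on the same side of both normal fed samples, which held for 62.6% of all genes tested with the DDC fed samples higher and for 8.94% with them lower. At least 2-fold on the tested scale, 3146 rose and 287 fell, and at least 8-fold, 309 rose and 37 fell. As many as 243 genes were at 1 TPM or more in both DDC fed samples and under 0.1 TPM in both normal fed samples, and 26 genes showed the reverse. The scatter of group means shows the rises spread over low and middle levels and the falls more among genes that were high in normal fed samples.

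**Figure D1:**
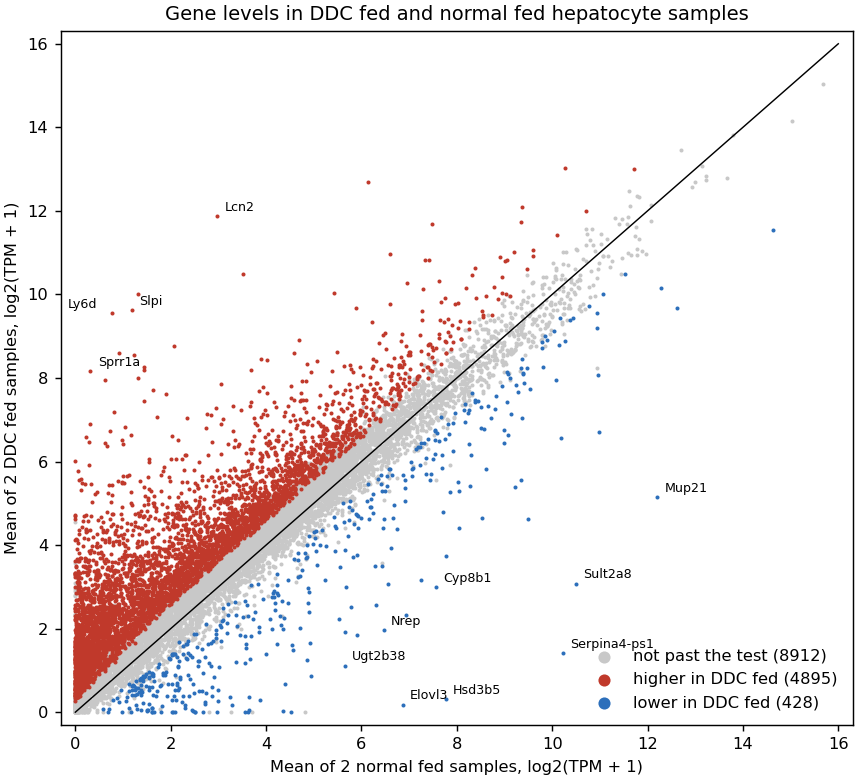
Mean log2(TPM + 1) of the 2 normal fed samples (x axis) and the 2 DDC fed samples (y axis), 1 point per gene tested, with the line of equal level. Red points are the 4895 genes that rose, blue points the 428 that fell and grey points those that did not pass; some of the genes with the largest changes are named.

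The excess of rises depended on how samples were scaled and on which normal fed sample was used. The median difference over all genes was 0.45, and the 50 most abundant genes took 33.2% and 37.3% of TPM in the normal fed samples against 26.9% and 26% in the DDC fed samples. Median-ratio scaling, which sets the typical gene equal between samples, moved the median by -0.46 to -0.01. It left 2900 rises (20.4%) and gave 1691 falls (11.9%), so rises made up 63.2% of calls against 92.0% in TPM. All 2900 were among the 4895, and all 428 falls in TPM were among the 1691. Counts after median-ratio scaling are therefore given beside the lists, mostly in brackets, with rises before falls. A single count in brackets is of rises where no member fell. Against normal fed sample 0 alone the median difference was 0.31, and against sample 1 alone it was 0.64. The gap between them followed total exon length: in the shortest of 5 equal groups of genes the medians were 0.23 and 0.13, and in the longest 0.30 and 0.87. Leaving out normal fed sample 0 the test called 7960 rises (55.9%) and 982 falls (6.90%), and without sample 1 it called 4711 (33.1%) and 682 (4.79%). Leaving out DDC fed sample 0 it called 2591 (18.2%) and 205 (1.44%), and without sample 1 2510 (17.6%) and 231 (1.62%).

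**Figure D2:**
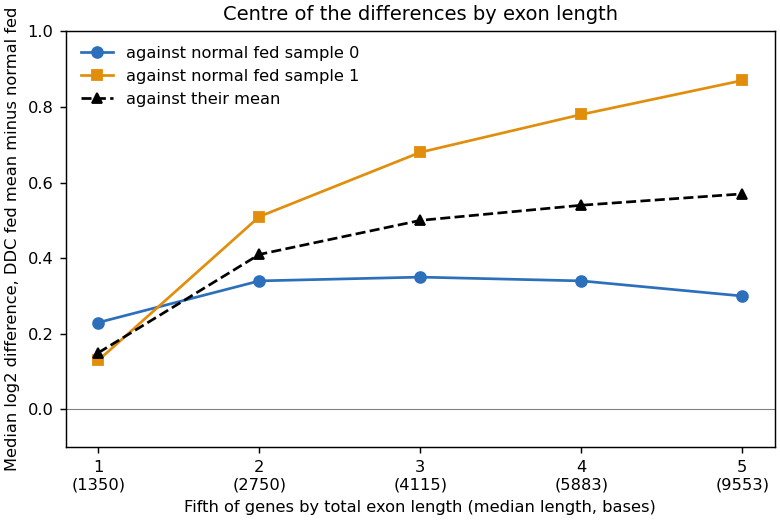
Median log2 difference of the DDC fed mean against normal fed sample 0, against sample 1 and against their mean (y axis), in 5 equal groups of genes from shortest to longest total exon length (x axis, with the median length in bases). The line against sample 0 lies between 0.23 and 0.35 throughout, and the line against sample 1 climbs from 0.13 to 0.87.

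Some abundant liver genes could not be compared, because the table lists them at 0 in a whole group while others hold 100 TPM or more. There were 80 such genes, and they were left out as failed estimates. Hemopexin (Hpx, 4282 and 3371 TPM), haptoglobin (Hp, 2963 and 2474 TPM) and complement C3 (2919 and 1120 TPM), with Ahsg, Gc and Cyp3a11, were listed at 0 in both DDC fed samples. Serpina3k stood at 3046 and 3233 TPM in the DDC fed samples and was listed at 0 in both normal fed samples. Genes of this kind held 71536 and 56243 TPM of the normal fed samples and 13392 and 12894 TPM of the DDC fed samples. Some were left out only because E18 was listed at 0, and adult values are given for 6 of them without a test. The fibrinogen chains were at 5483 and 2365 TPM against 4024 and 3767 TPM for Fga and at 2528 and 1323 TPM against 2094 and 2041 TPM for Fgb, and Cib3, a calcium-binding protein gene, was at 0.909 and 1.57 TPM against 181 and 200.5 TPM. Ubd, the ubiquitin-like modifier FAT10, was at 1.138 and 1.805 TPM in normal fed and at 509.5 and 631 TPM in DDC fed samples. Orm2, an acute phase glycoprotein, went from 23.9 and 16.9 TPM to 379 and 585 TPM, and the anion transporter gene Slc22a7 from 264 and 111 TPM to 8.88 and 6.65 TPM.

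The summed level of hepatocyte markers was high in all 4 samples but lower in the DDC fed ones. Most macrophage, stellate cell and endothelial markers were higher in the DDC fed samples. Of 8 hepatocyte markers tested none rose in limma (0 at an unadjusted p under 0.05), and Cyp2e1 and Hpd fell (after median-ratio scaling 0 and 3); without DDC fed sample 0 or sample 1, 1 fell. The markers' summed level was 54102 and 55899 TPM in normal fed and 30203 and 29964 TPM in DDC fed samples. These sums leave out Apoa1, Serpina1a, Serpina1c and Fgb, which are among the 80 genes above. Albumin (Alb) and Apoa1 were listed at 0 in all 4 samples. All 15 macrophage and Kupffer cell markers rose (15 with median-ratio scaling), with sums of 163 and 134 TPM against 1344 and 1650 TPM. Among 13 markers of stellate cells and fibroblasts, 12 rose (12), with sums of 30.5 and 13.8 TPM against 421 and 377 TPM. The exception was Acta2, the smooth muscle actin of activated stellate cells, which was listed at 0 in normal fed samples and at 0.160 and 0.121 TPM in DDC fed samples. Of 13 endothelial markers 12 rose (10), with sums of 67.3 and 22.5 TPM against 243 and 253 TPM. The endothelial count was 7 without DDC fed sample 0 and also without sample 1.

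Cholangiocyte markers, those of bile duct cells, were mostly higher in DDC fed samples, but not all passed the test. Of 11 tested 6 rose (6 with median-ratio scaling), or 54.5% against 34.4% of all genes. Both DDC fed samples lay above both normal fed samples in 10 of the 11, against 62.6% of all genes tested. The list sum was 14.3 and 12.3 TPM against 123 and 140.4 TPM. Prom1, a membrane protein of progenitor and duct cells, went from 0.0273 and 0.0312 TPM to 16.7 and 11.3 TPM (3.84 ± 0.23, adjusted p = 0.00010). Spp1, Sox9, Tspan8 and Cd24a rose too, with Sox9 at 1.73 and 1.54 TPM against 12.65 and 19.8 TPM. The classical duct keratins lay near 0 and did not pass. Krt19 was at 0.0482 and 0 TPM against 0.0909 and 0.227 TPM, and Krt7 at 0.00959 and 0.00795 TPM against 0.0637 and 0.0239 TPM. Of 9 T, NK and B cell markers tested none rose or fell in limma (0 at an unadjusted p under 0.05), and their sums were 1.41 to 5.59 TPM. Of 6 neutrophil markers Csf3r rose, to 0.847 and 0.772 TPM, and of 5 erythroid markers Alas2 fell from 22.2 and 13.8 TPM to 6.22 and 5.66 TPM (2 fell after median-ratio scaling). Neither passed without DDC fed sample 0 or sample 1 (adjusted p from 0.078 to 0.20), nor Csf3r without normal fed sample 1 (0.056). In bulk samples more cells of a type and more RNA per cell cannot be told apart, and the part of other cell types in the gene groups below was not tested.

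The largest rises, ranked by the smallest of the 4 differences between a DDC fed and a normal fed sample, included genes of secreted protease inhibitors, surface proteins, calcium-binding proteins and detoxification enzymes. Slpi, a secreted inhibitor of neutrophil proteases, was at 1.34 and 1.21 TPM in normal fed and at 859 and 723 TPM in DDC fed samples. Ly6d, a surface protein of keratinocytes and some leukocytes, was at 0.593 and 0.791 TPM against 781 and 709.6 TPM. Sprr1a, a cornified envelope protein of squamous epithelium that is also induced by injury, was at 0.117 and 0.375 TPM against 265 and 305 TPM. The ranking picks genes without overlap between the groups. The smallest difference between a DDC fed and a normal fed sample was 8.27 for Slpi, 8.63 for Ly6d and 7.60 for Sprr1a. Anxa5, which binds exposed phosphatidylserine, stood at 4.27 and 2.16 TPM against 425 and 446 TPM, and the actin-binding Tagln2 at 2.15 and 0.845 TPM against 251 and 259 TPM. The other genes among the 12 were Lcn2, Cyp2a4, S100a11, Ifi27l2b, Cd63, Gsta1 and Spink1. The next gene in the order was Anxa2, with a smallest difference of 6.29, and 2167 genes were ranked.

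The largest falls included genes of steroid, bile acid and sulfate conjugation enzymes of adult liver, together with a pseudogene. Serpina4-ps1, an unprocessed pseudogene on chromosome 12 from 104080649 to 104086724 (GRCm38), was at 1365 and 1016 TPM in normal fed and at 1.70 and 1.64 TPM after DDC (-8.79 ± 0.39, adjusted p = 3.2e-05). It lies among serpin genes of closely related sequence, so how its reads were assigned is uncertain. Hsd3b2, a steroid dehydrogenase, fell from 163 and 141 TPM to 7.80 and 8.10 TPM (-4.09 ± 0.32), and its relative Hsd3b5 from 227 and 208 TPM to 0.293 and 0.184 TPM (-7.46 ± 0.23). Nudt7, a peroxisomal enzyme that degrades coenzyme A, fell from 1661 and 2375 TPM to 98.8 and 110 TPM (-4.24 ± 0.26, adjusted p = 0.00011). Nrep, a neuronal regeneration-related protein gene, fell from 86.3 and 89.1 TPM to 2.54 and 3.27 TPM (-4.51 ± 0.27, adjusted p = 0.00010). The other genes among the 12 were Mup21, Sult2a8, Elovl3, Cyp8b1, Ugt2b38, Ces3b and Sult5a1, and the next in the order of 211 was Paqr9 at -3.57. All 24 genes passed with median-ratio scaling, and they had been picked for a wide gap between the groups. Cyp2a4, Mup21, Hsd3b5, Sult2a8, Ugt2b38 and Ces3b belong to families of near-identical members whose reads are hard to assign.

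**Figure D3:**
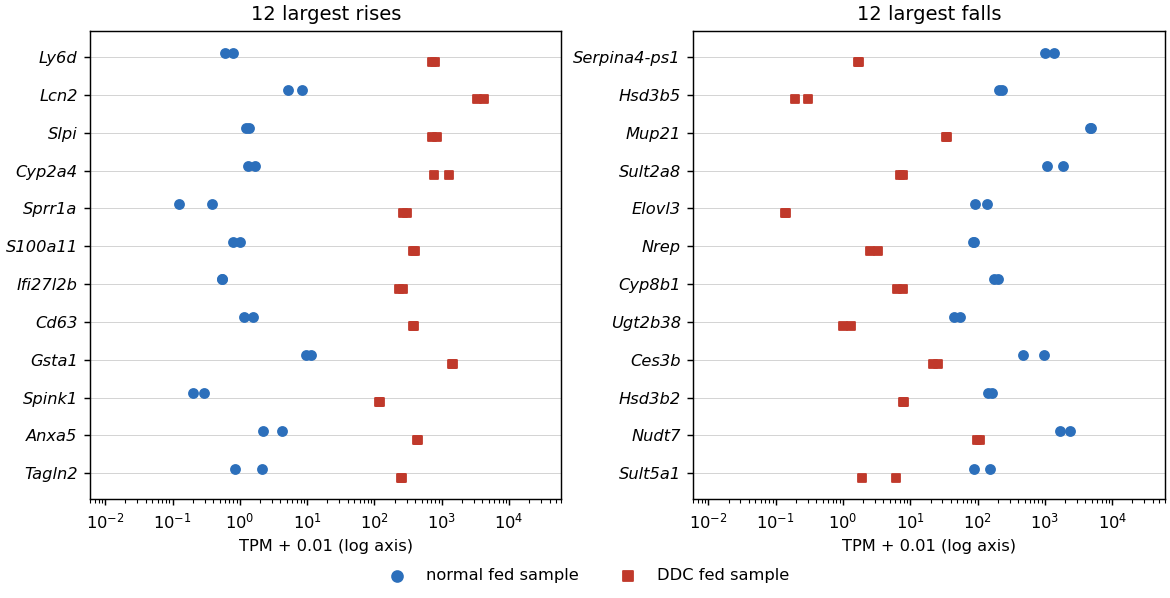
TPM + 0.01 on a log axis for the 12 largest rises (left) and the 12 largest falls (right), with normal fed samples as blue circles and DDC fed samples as red squares, 2 of each per gene. The genes were picked for a wide gap between the groups, so the colours are apart in every gene by choice.

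The promoters of a few of these genes are shown because dimers of the Fos and Jun families, whose genes are described below, bind the short motif TGANTCA. Sprr1a and S100a11 stand for the 12 largest rises, and Anxa2 and Mt2, which are not among the 12, were added as genes that rose and hold a match. The stretches are the 250 bases before the RefSeq start site on GRCm38.p6, which is the reference strain and not FVB, and capitals mark each TGANTCA match, a motif that reads the same on both strands. In the RefSeq collection 6.75% of all 32851 promoters held it. Of the 12 largest rises 9 had an entry, and S100a11 and Sprr1a held the motif. Of the 12 largest falls 9 had an entry, and Ugt2b38 held it. Of 12 promoters listed for 9 annexin genes 2 held it, those of Anxa2 and Anxa10, and Anxa10 was listed at 0 in all 4 adult samples. Sprr1a lies on the minus strand (chr3:92485882-92486131), S100a11 on the plus strand (chr3:93520246-93520495), Anxa2 on the plus strand (chr9:69453433-69453682) and Mt2 on the plus strand (chr8:94172368-94172617).
Sprr1a: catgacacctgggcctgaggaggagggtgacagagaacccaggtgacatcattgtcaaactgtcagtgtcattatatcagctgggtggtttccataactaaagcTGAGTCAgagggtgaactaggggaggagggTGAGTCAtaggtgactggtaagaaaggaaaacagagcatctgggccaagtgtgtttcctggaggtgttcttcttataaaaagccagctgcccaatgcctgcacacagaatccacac
S100a11: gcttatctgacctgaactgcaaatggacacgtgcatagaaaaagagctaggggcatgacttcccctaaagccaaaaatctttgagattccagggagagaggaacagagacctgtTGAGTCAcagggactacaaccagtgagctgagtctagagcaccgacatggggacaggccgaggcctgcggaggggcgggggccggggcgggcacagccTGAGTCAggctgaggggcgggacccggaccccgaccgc
Anxa2: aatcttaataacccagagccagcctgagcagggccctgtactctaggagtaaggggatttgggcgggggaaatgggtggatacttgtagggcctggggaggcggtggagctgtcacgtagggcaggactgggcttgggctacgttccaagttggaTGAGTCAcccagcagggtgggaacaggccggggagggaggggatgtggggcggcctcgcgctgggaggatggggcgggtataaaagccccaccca
Mt2: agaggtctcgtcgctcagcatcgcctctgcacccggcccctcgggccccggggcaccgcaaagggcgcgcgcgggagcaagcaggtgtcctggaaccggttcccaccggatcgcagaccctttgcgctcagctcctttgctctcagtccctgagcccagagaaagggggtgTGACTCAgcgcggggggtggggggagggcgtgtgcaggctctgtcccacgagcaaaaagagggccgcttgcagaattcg
The matches began 146 and 116 bases before the start in Sprr1a, 136 and 38 bases before it in S100a11, 95 in Anxa2 and 79 in Mt2. The motif and these genes were chosen after values were seen, and a match is a description of the sequence only.

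Heme synthesis, the pathway that DDC blocks at its last step, had 1 gene that passed in TPM, and more of its genes fell with median-ratio scaling. Of its 14 genes 1 rose in limma, or 7.14% against 34.4% of all genes, and none fell. At an unadjusted limma p under 0.05, 1 was lower, and the median difference was 0.14. The gene that rose was Tspo, the outer mitochondrial membrane protein that binds porphyrins, at 90.6 and 124 TPM against 188 and 199 TPM (0.86 ± 0.24, adjusted p = 0.029), and it did not pass with median-ratio scaling (0.18) or without either DDC fed sample. Ferrochelatase (Fech) was at 102 and 61.8 TPM in normal fed and at 93.2 and 84.8 TPM in DDC fed samples, and the groups overlapped. Alas1, the rate-limiting enzyme, was at 1829 and 493 TPM in normal fed samples and at 959 and 946 TPM in DDC fed samples. Its difference was 0.95 against normal fed sample 1 alone (adjusted p = 0.0046) and -0.94 against sample 0 alone (adjusted p = 0.011), so no direction can be given. With median-ratio scaling 5 of the 14 fell, or 35.7% against 11.9% of all genes. The counts hung on the normal fed samples: 4 rises without sample 0, and 2 rises and 4 falls without sample 1.

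A few heme breakdown genes rose by much, and whether the list stood above all genes depended on the scaling. The share that rose was 27.3% against 34.4% of all genes in TPM, and 27.3% against 20.4% with median-ratio scaling. Hmox1, heme oxygenase 1, which opens the heme ring, was at 10.99 and 9.14 TPM against 129 and 168 TPM (3.75 ± 0.25, adjusted p = 0.00013). Slc48a1, which carries heme out of lysosomes, was at 25.4 and 19.8 TPM against 148 and 127 TPM (2.56 ± 0.23, adjusted p = 0.00035), and Flvcr2, a heme transporter family member, at 0.469 and 0.265 TPM against 7.61 and 6.35 TPM (2.55 ± 0.22). These were the 3 that rose of 11 tested (after median-ratio scaling 3 and 1), and all 3 passed with that scaling. The biliverdin reductases Blvra and Blvrb, which act next, did not pass, with Blvrb at 188 and 379 TPM against 359 and 399 TPM. The count was 6 without normal fed sample 0 and 5 without sample 1.

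Of 20 iron genes 10 rose, or 50% against 34.4% of all genes, with a median of 0.77. After median-ratio scaling 3 rose, or 15% against 20.4%, and 2 fell. Ceruloplasmin (Cp), the copper oxidase that loads iron onto transferrin, was at 831 and 474 TPM against 3754 and 3030 TPM (2.42 ± 0.40, adjusted p = 0.0039). Steap3, an endosomal iron reductase, went from 10.3 and 3.83 TPM to 39.1 and 36.1 TPM (2.38 ± 0.38, adjusted p = 0.0035), and Bmp6, a signal that controls hepcidin, from 1.95 and 0.365 TPM to 6.21 and 5.48 TPM (1.77 ± 0.34, adjusted p = 0.0076). These 3 were the rises that held with median-ratio scaling. Ferritin heavy chain (Fth1), at 3224 and 3530 TPM against 8007 and 8507 TPM, and the transferrin receptor Tfrc, at 13.5 and 11.1 TPM against 28.8 and 29.3 TPM, did not pass then (0.60 and 0.54). Hepcidin (Hamp), the hormone that limits iron export, was at 13463 and 12714 TPM against 7059 and 7106 TPM, lower in both DDC fed samples without passing the test (-0.89 ± 0.37, adjusted p = 0.11; -1.57 with median-ratio scaling, adjusted p = 0.0498). Iron genes gave 4 rises without DDC fed sample 0, 3 without sample 1 and 16 without normal fed sample 0. Fth1 and Tfrc did not pass without either DDC fed sample (adjusted p from 0.071 to 0.18). Transferrin (Trf) was listed at 0 in all samples.

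**Figure D4:**
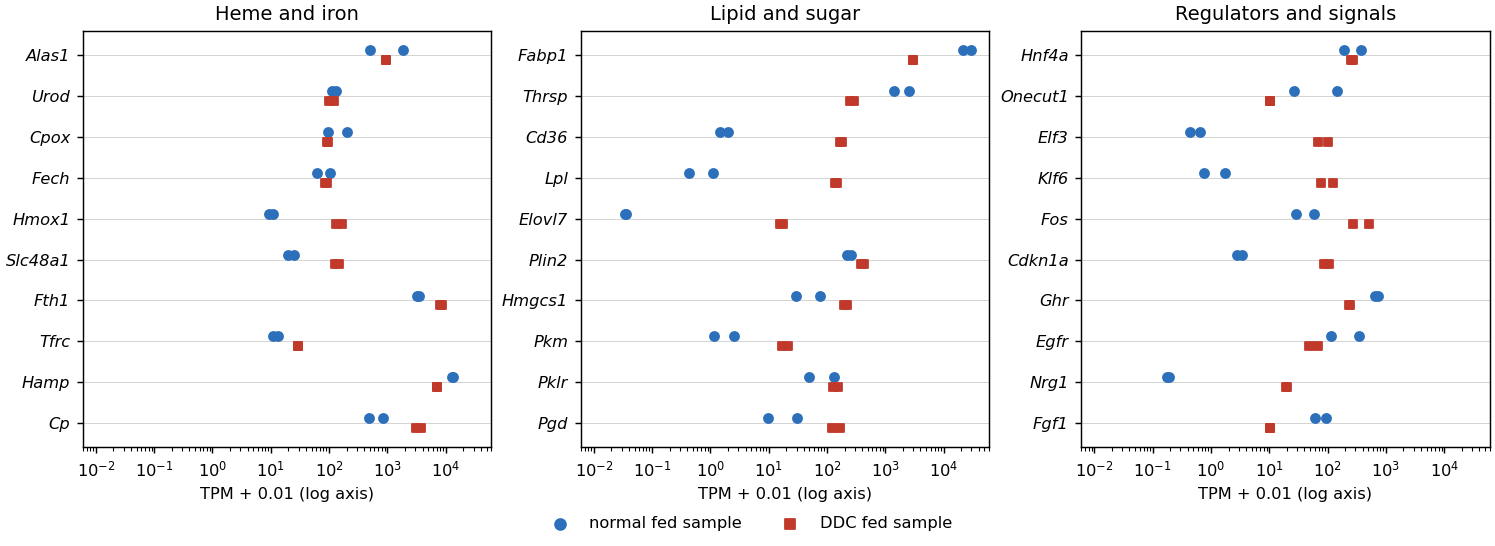
TPM + 0.01 on a log axis for 10 genes each of heme and iron handling, of lipid and sugar metabolism, and of regulators and signals, with normal fed samples as blue circles and DDC fed samples as red squares. Alas1, Urod, Cpox and Fech of heme synthesis overlap between the groups, whereas Hmox1, Slc48a1, Cd36, Lpl, Elovl7, Elf3, Klf6 and Nrg1 are far apart; Alas1 and Egfr show the wide gap between the normal fed samples.

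The keratin and p62 genes of Mallory-Denk bodies rose, while most of the protein quality control machinery did not pass. Of 14 keratin and other intermediate filament genes 9 rose (after median-ratio scaling 9 and 1), with a median of 1.45. Krt8 was at 129.7 and 63.02 TPM against 2076 and 1900 TPM, and its partner Krt18 at 164 and 156 TPM against 1820 and 1786 TPM. Krt23, a keratin of stressed hepatocytes, was at 0.705 and 0.579 TPM against 18.9 and 12.8 TPM (3.33 ± 0.22, adjusted p = 0.00013), and Krt20 was listed at 0 in normal fed samples and at 2.03 and 2.26 TPM in DDC fed samples. The mesenchymal filament Vim was at 2.77 and 0.990 TPM against 33.2 and 35.0 TPM, and Des, a stellate cell marker, at 0.217 and 0.123 TPM against 2.27 and 2.08 TPM. Sqstm1, which encodes p62, was at 254 and 177 TPM against 1004 and 938 TPM (2.19 ± 0.26, adjusted p = 0.00097). It stood at the head of 5 rises among 25 autophagy genes, and with median-ratio scaling 2 of the 25 rose and 5 fell. The autophagosome protein gene Map1lc3b, at 95.3 and 143 TPM against 100 and 111 TPM, did not pass.

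Of 25 cytosolic chaperones 3 rose (after median-ratio scaling 1 and 4), with a median of 0.35. The small heat shock protein Hspb1, a partner of keratin filaments, was at 21.2 and 29.5 TPM against 144 and 207 TPM (2.74 ± 0.27, adjusted p = 0.00048). Hspa4l and Cryab rose by less (0.82 and 0.75) and did not pass with median-ratio scaling or without either DDC fed sample. Genes of endoplasmic reticulum stress gave 1 rise and 3 falls among 22 (after median-ratio scaling 0 and 10), with a median of -0.13. Here 4.55% rose and 13.6% fell, against 34.4% and 3.01% of all genes, and with that scaling 45.5% fell against 11.9%. The median was -0.30 against normal fed sample 0 and 0.19 against sample 1, and without sample 0 the list had 6 rises and 4 falls. Syvn1, a ubiquitin ligase that clears misfolded proteins, was at 117 and 144 TPM against 54.4 and 69.6 TPM, Creld2 at 164 and 231 TPM against 66.5 and 111 TPM, and Herpud1 at 966 and 868 TPM against 568 and 463 TPM. The falls were of -1.06, -1.17 and -0.83, and none of the 3 passed without DDC fed sample 0 (adjusted p = 0.13, 0.19 and 0.16). Creld2 was also lost without normal fed sample 1, Syvn1 without DDC fed sample 1, and Herpud1 without any 1 of the 4 adult samples. The rise, of the stress kinase Eif2ak3 (1.13), was lost without DDC fed sample 0 or sample 1 (0.20 and 0.11) and with median-ratio scaling (0.17). The chaperone Hspa5 did not pass, at 1799 and 1812 TPM against 1226 and 1802 TPM. Autophagy genes and chaperones each gave 13 rises without normal fed sample 0, and 1 rise each without either DDC fed sample.

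Targets of p53 and ATF4, which respond to DNA damage and to amino acid or organelle stress, rose in larger shares. Of 29 p53 targets and cell cycle inhibitors 22 rose (12 with median-ratio scaling), with a median of 1.35. Cdkn1a, the inhibitor p21, was at 3.34 and 2.79 TPM against 107 and 86.9 TPM (4.59 ± 0.20, adjusted p = 3.2e-05). Phlda3, which restrains Akt, went from 0.270 and 0.0221 TPM to 11.1 and 9.25 TPM (3.29 ± 0.26), the receptor Eda2r from 0.118 and 0.0410 TPM to 7.55 and 4.31 TPM (2.64 ± 0.22), and the death receptor Tnfrsf10b from 0.152 and 0.0721 TPM to 7.18 and 4.39 TPM (2.58 ± 0.22). The count of rises was 14 without DDC fed sample 0. Of 26 ATF4 targets and genes of serine and asparagine synthesis 15 rose (after median-ratio scaling 10 and 3), with a median of 1.01. Gdf15, a hormone of cell stress, was at 15.4 and 11.4 TPM against 169 and 240 TPM (3.83 ± 0.37, adjusted p = 0.00044), and the lipoprotein receptor Vldlr at 1.135 and 0.630 TPM against 15.5 and 15.1 TPM (3.13 ± 0.21, adjusted p = 0.00013). Asns, asparagine synthetase, remained low at 1.28 and 2.10 TPM in DDC fed samples although it passed (1.11 ± 0.22, adjusted p = 0.0089; 0.10 without DDC fed sample 1). Ddit3, which encodes CHOP, did not pass (0.85 ± 0.31, adjusted p = 0.074).

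The metallothioneins rose, with a wide split between the normal fed samples, but metal genes as a list stayed near the share of all genes. Mt2, a metallothionein that buffers zinc and copper, was at 69.0 and 15.0 TPM against 1094 and 997 TPM (4.97 ± 0.62, adjusted p = 0.0012), and Mt1 at 333 and 61.3 TPM against 1261 and 1298 TPM (3.15 ± 0.70, adjusted p = 0.013). Mt1 did not pass without DDC fed sample 0 or sample 1 (0.064 and 0.068). The zinc importer Slc39a4 was at 38.5 and 13.8 TPM against 277 and 208 TPM (3.32 ± 0.49, adjusted p = 0.0024). In all 10 of 27 metal genes rose (after median-ratio scaling 4 and 4), which is 37.0% against 34.4% of all genes (14.8% against 20.4% with that scaling), with a median of 0.54. The rises numbered 2 without DDC fed sample 0, 3 without sample 1 and 18 without normal fed sample 0.

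Plasma protein genes split by system. Of 25 acute phase genes 15 rose and 1 fell (after median-ratio scaling 11 and 1), with a median of 1.45. Saa2, a serum amyloid that travels with lipoproteins, was at 30.1 and 24.9 TPM against 229 and 257 TPM (3.10 ± 0.20, adjusted p = 0.00012). Il1rn, the interleukin 1 receptor antagonist, went from 0.293 and 0.149 TPM to 12.9 and 13.97 TPM (3.56 ± 0.19, adjusted p = 6.3e-05), and Osmr, the oncostatin M receptor, from 0.185 and 0.0704 TPM to 4.35 and 3.86 TPM. Saa4, the constitutive serum amyloid, fell from 849 and 498 TPM to 286 and 268 TPM (-1.23 ± 0.35, adjusted p = 0.033), a call lost without normal fed sample 0 (0.064) and without DDC fed sample 0 or sample 1 (0.13 and 0.16). Orm1, already at 2211 and 3430 TPM in normal fed samples, did not pass at 3516 and 3652 TPM. A further 7 list members, among them Hp, Hpx and the fibrinogen chains Fga and Fgb, were not tested because they are listed at 0 in a group.

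Complement genes that rose included those of macrophages, and those that fell belonged to the lytic pore made by hepatocytes. Of 27 tested 8 rose and 2 fell (after median-ratio scaling 6 and 4). In shares this was 29.6% and 7.41%, against 34.4% and 3.01% of all genes. C1qa, C1qb and C1qc, the subunits of C1q and also 3 of the macrophage markers, rose by 2.90, 3.20 and 3.19, with C1qb at 16.5 and 12.3 TPM against 124 and 156 TPM. The anaphylatoxin receptors C5ar1 and C3ar1 rose by 2.53 and 2.02. C8b and C9 were at 629 and 436 TPM against 174 and 169 TPM (-1.61 ± 0.30, adjusted p = 0.0069) and at 1993 and 1517 TPM against 884 and 817 TPM (-1.03 ± 0.24, adjusted p = 0.015). Neither fall passed without DDC fed sample 0 or sample 1 (adjusted p from 0.056 to 0.13), and 16 complement genes rose without normal fed sample 0. Of 30 coagulation genes 8 rose (7 with median-ratio scaling), with a median of 0.55 (-0.13 with that scaling). The share that rose was 26.7% against 34.4% of all genes (23.3% against 20.4% with that scaling). The plasminogen activator gene Plat was listed at 0 in both normal fed samples and at 3.12 and 4.14 TPM in DDC fed samples. The urokinase receptor Plaur and thrombomodulin (Thbd) rose by 2.16 and 2.03. Coagulation genes gave 15 rises without normal fed sample 0.

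Among genes of lipid uptake Cd36 and Lpl rose, and among fatty acid oxidation genes falls outnumbered rises. Cd36, a fatty acid and scavenger receptor, was at 1.96 and 1.46 TPM against 184 and 165 TPM (6.02 ± 0.20, adjusted p = 1.6e-05). Lpl, the lipase that releases fatty acids from lipoproteins and is made by macrophages as well, was at 1.10 and 0.416 TPM against 137 and 150 TPM (6.39 ± 0.33, adjusted p = 5.5e-05). Both genes were near the bottom of the scale in each normal fed sample and among the well-detected genes in each DDC fed sample. Of 38 oxidation and ketogenesis genes 2 rose and 7 fell, with a median of -0.09 (2 and 16, -0.77 with median-ratio scaling). Fabp1, the abundant fatty acid carrier of liver, fell from 21726 and 28962 TPM to 2963 and 2997 TPM (-3.07 ± 0.39, adjusted p = 0.0014), and the thioesterase Acot1 from 22.7 and 35.2 TPM to 6.204 and 6.58 TPM (-1.99 ± 0.27). Its neighbour in function Acot2 rose instead, from 1.52 and 1.87 TPM to 8.02 and 7.25 TPM (1.68 ± 0.24). Acot1 and Acot2 are near-identical, so reads could be split between them. The carnitine transferase Cpt1a, at 146 and 56.8 TPM against 124 and 96.0 TPM, and the receptor Ppara, at 57.1 and 25.4 TPM against 48.5 and 30.3 TPM, overlapped between the groups. The list had 4 and 3 falls without DDC fed sample 0 and sample 1, and 8 rises and 10 falls without normal fed sample 0.

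Fat storage and synthesis were mixed. Of 21 lipid droplet and uptake genes 7 rose and 2 fell (after median-ratio scaling 5 and 8). The share that rose, 33.3%, was near the 34.4% of all genes, and after that scaling 38.1% fell against 11.9%. Plin3, a coat protein of small droplets, rose from 19.1 and 16.9 TPM to 89.6 and 90.0 TPM (2.26 ± 0.19, adjusted p = 0.00029). The monoglyceride lipase Mgll fell from 149 and 92.2 TPM to 35.0 and 29.9 TPM (-1.82 ± 0.28), and G0s2, an inhibitor of the lipase ATGL, from 138 and 386 TPM to 36.7 and 39.4 TPM (-2.57 ± 0.44). Of 26 fatty acid synthesis genes 6 rose and 1 fell (3 and 4). Thrsp, a promoter of lipogenesis, fell from 2576 and 1388 TPM to 287 and 249 TPM (-2.82 ± 0.31, adjusted p = 0.00074), whereas the elongase Elovl7 went from 0.0245 and 0.0254 TPM to 17.8 and 15.3 TPM (4.09 ± 0.18, adjusted p = 3.2e-05). Fatty acid synthase (Fasn) did not pass, at 133 and 40.8 TPM against 218 and 151 TPM (1.29 ± 0.53, adjusted p = 0.098; 2.13 without normal fed sample 0, adjusted p = 0.0024). Of 25 cholesterol synthesis genes 4 rose and 1 fell (1 and 4), and all 5 calls were lost without either DDC fed sample. Hmgcs1, the entry enzyme, was at 76.7 and 28.9 TPM against 222 and 192 TPM (2.11 ± 0.49, adjusted p = 0.016; 0.089 and 0.068 without DDC fed sample 0 and sample 1). When normal fed sample 0 was left out, 16 genes of each synthesis list and 12 droplet genes rose, and when sample 1 was, 5 droplet and 3 fatty acid synthesis genes fell. Fatty acid synthesis genes gave 2 rises without either DDC fed sample. Of 25 apolipoprotein and lipoprotein assembly genes 6 rose (3 and 1), Lpl among them, with the lipid transfer protein Pltp at 4.52 and 2.33 TPM against 32.7 and 36.4 TPM. Of the 25 genes, more rose without normal fed sample 0 and fewer without DDC fed sample 1.

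Sugar metabolism genes that rose included steps of the pentose phosphate pathway and some isoforms outside the adult liver set. Of 8 pentose phosphate genes 5 rose (2 with median-ratio scaling), with a median of 1.02. Pgd, phosphogluconate dehydrogenase, was at 30.2 and 9.77 TPM against 168 and 123 TPM (2.98 ± 0.47, adjusted p = 0.0033), and G6pdx, the entry enzyme, at 1.58 and 0.822 TPM against 4.84 and 5.75 TPM (1.53 ± 0.24, adjusted p = 0.0033). Those were the 2 that held with that scaling and without DDC fed sample 0 or sample 1. Of 28 glycolysis genes 14 rose (7 rose and 1 fell), with a median of 0.80. Pkm, the pyruvate kinase of most tissues other than liver, rose from 2.57 and 1.15 TPM to 17.0 and 21.3 TPM (2.85 ± 0.30, adjusted p = 0.00059), while the liver isoform Pklr, at 133 and 49.8 TPM against 156 and 129 TPM, did not pass. The hexokinases Hk1 and Hk3 rose by 1.19 and 1.36 but stayed low, with Hk1 at 1.58 and 1.97 TPM in DDC fed samples. Hk1 was lost without DDC fed sample 0 or sample 1 (adjusted p = 0.054 and 0.090), and the list then had 3 and 4 rises. Of 20 genes of gluconeogenesis, glycogen and fructose use 7 rose (after median-ratio scaling 5 and 4), or 35.0% against 34.4% of all genes. Glycogenin (Gyg) went from 1.85 and 1.40 TPM to 15.2 and 15.5 TPM (2.64 ± 0.20, adjusted p = 0.00020), and Pck1 and Fbp1, of gluconeogenesis, did not pass (-0.11 and -0.27). The list had 11 rises without normal fed sample 0.

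Conjugating and hydrolysing enzymes of drug and steroid metabolism changed in both directions. Of 27 glucuronosyltransferases and sulfotransferases 5 rose and 7 fell (after median-ratio scaling 2 and 10). Of 36 carboxylesterases, aldehyde dehydrogenases and aldo-keto reductases 13 rose and 8 fell (9 and 12). In shares this was 18.5% and 25.9% for the first list and 36.1% and 22.2% for the second, against 34.4% and 3.01% of all genes. The falls reached beyond those among the 12 largest: Ugt3a1 went from 116 and 85.7 TPM to 25.9 and 22.2 TPM (-2.01 ± 0.29, adjusted p = 0.0023), and Ces1e from 593 and 416 TPM to 93.7 and 79.1 TPM (-2.52 ± 0.24, adjusted p = 0.00046). The 8 that fell in the second list were carboxylesterases, which hydrolyse esters of drugs and lipids, apart from Akr1c14. The 13 that rose were 4 carboxylesterases, 4 aldehyde dehydrogenases and 5 aldo-keto reductases. Aldh1a7, which oxidises aldehydes, was at 135 and 91.4 TPM against 481 and 461 TPM (2.07 ± 0.24, adjusted p = 0.00086), and the reductases were Akr1b7 at 0 and 0.0763 TPM against 7.63 and 8.55 TPM, and Akr1b10 at 0.575 and 0.788 TPM against 3.32 and 3.80 TPM. The second list had 3 and 2 falls without DDC fed sample 0 and sample 1, and the transferases then had 2 rises, against 11 without normal fed sample 0.

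Interferon and antigen presentation genes rose together. Of 42 interferon response genes 28 rose (after median-ratio scaling 21 and 2), with a median of 1.10. Oasl1, an antiviral protein that restrains interferon production, was at 1.87 and 0.653 TPM against 31.1 and 29.5 TPM (3.84 ± 0.29, adjusted p = 0.00020), and the regulator Irf7 at 8.00 and 5.35 TPM against 40.1 and 43.8 TPM (2.50 ± 0.23, adjusted p = 0.00037). Of 22 genes of antigen presentation and the immunoproteasome 16 rose (11), with a median of 1.44. Tapbp, which loads peptides on class I molecules and overlaps Zbtb22 on the same strand, was at 37.0 and 15.5 TPM against 134 and 105 TPM (2.26 ± 0.39, adjusted p = 0.0046), and Nlrc5, the activator of class I genes, at 2.16 and 1.22 TPM against 6.86 and 6.41 TPM (1.53 ± 0.21). H2-K1, a classical class I heavy chain, rose from 677 and 351 TPM to 1976 and 1615 TPM (1.87 ± 0.35, adjusted p = 0.0067; 0.060 without DDC fed sample 0), and H2-Q7, a nonclassical one, from 12.1 and 7.90 TPM to 47.6 and 46.5 TPM (2.16 ± 0.24). These class I genes are near-identical, so reads may be shared. The class II chaperone Cd74, typical of antigen-presenting cells, was at 41.8 and 25.2 TPM against 132 and 180 TPM. The light chain B2m did not pass (0.91 ± 0.34, adjusted p = 0.080). Of 33 core and cap subunits of the ordinary proteasome 2 rose, Psmd8 and Psmd1 (1.15 and 0.75), and with median-ratio scaling neither passed and 1 subunit fell. Interferon genes gave 18 and 16 rises without DDC fed sample 0 and sample 1, presentation genes 9 and 10, and the ordinary proteasome none in limma. Proteasome genes gave 7 rises and 6 falls without normal fed sample 0, and 7 rises without sample 1.

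Class I promoters carry a shared upstream stretch, shown here for 3 genes because they rose or belong with those that rose. Each stretch spans 200 to 81 bases before the RefSeq start site on GRCm38.p6, for H2-K1 on the minus strand (chr17:34000414-34000533, the entry with the lower coordinate), and for H2-D1 (chr17:35262894-35263013) and H2-Q7 (chr17:35438955-35439074) on the plus strand. Capitals mark GGGGATTCC, a motif of the NF-kB family searched on both strands.
H2-K1: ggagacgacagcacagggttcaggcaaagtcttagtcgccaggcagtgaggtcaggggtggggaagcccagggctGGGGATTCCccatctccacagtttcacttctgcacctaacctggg
H2-D1: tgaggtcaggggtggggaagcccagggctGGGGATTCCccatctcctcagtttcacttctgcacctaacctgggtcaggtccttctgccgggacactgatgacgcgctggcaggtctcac
H2-Q7: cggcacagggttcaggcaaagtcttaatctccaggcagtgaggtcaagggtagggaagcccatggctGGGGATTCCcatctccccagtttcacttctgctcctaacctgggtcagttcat
It began 125 bases before the start in H2-K1, 171 in H2-D1 and 133 in H2-Q7. Of 23 promoters listed for 20 genes of antigen presentation and the immunoproteasome 4 held it, all of these 3 genes, against 0.213% of all promoters in the table. The motif did not overlap a TGANTCA match in these stretches. It was chosen after values were seen, and class I promoters share ancestry, so the matches are not independent.

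Chemokine, cytokine and lysosome genes rose in most members, and so did the macrophage markers. Of 37 chemokine and cytokine genes 29 rose (after median-ratio scaling 28 and 2), with a median of 1.74. Ccl2, which recruits monocytes, was at 0.781 and 0.510 TPM against 84.8 and 126 TPM (5.99 ± 0.28, adjusted p = 3.8e-05). Cxcl10, an interferon-induced attractant of T cells, went from 0.911 and 1.04 TPM to 34.4 and 55.1 TPM (4.50 ± 0.33), Cxcl14 from 0.101 and 0.0167 TPM to 11.6 and 14.3 TPM (3.71 ± 0.16), and the neutrophil attractant Cxcl1 from 64.9 and 82.9 TPM to 422 and 862 TPM (3.02 ± 0.51, adjusted p = 0.0042). DDC fed sample 1 was above sample 0 in 33 of the 37 genes, against 54.8% of all genes tested. Of 44 lysosome genes 34 rose (26 rose and 2 fell), with a median of 1.59. Hexa, a subunit of beta-hexosaminidase, was at 9.88 and 7.83 TPM against 167 and 151 TPM (4.03 ± 0.20, adjusted p = 5.4e-05). Cathepsin D (Ctsd) rose from 308 and 190 TPM to 909 and 830 TPM (1.84 ± 0.29, adjusted p = 0.0034), and Gpnmb, a glycoprotein of lipid-laden macrophages, reached 13.7 and 19.8 TPM from 0 and 0.0121 TPM. Lysosome genes gave 20 and 22 rises without DDC fed sample 0 and sample 1.

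Cytoskeletal, junction and adhesion genes rose across families. Among 10 annexins, which bind membranes in the presence of calcium, 8 rose (8 with median-ratio scaling), with Anxa2 at 2.62 and 0.789 TPM against 282 and 297 TPM (6.83 ± 0.33, adjusted p = 4.6e-05). Of 10 S100 proteins 5 rose (4): S100a6, a partner of annexins, went from 0.0677 and 0 TPM to 9.01 and 9.74 TPM (3.33 ± 0.22), and S100a10, the partner of Anxa2, from 131 and 293 TPM to 583 and 706 TPM (1.71 ± 0.38). S100a10 did not pass with median-ratio scaling (1.02) or without DDC fed sample 0 or sample 1 (adjusted p = 0.058 and 0.093). Of 14 tubulins 10 rose (9), led by Tubb6 at 2.82 and 2.32 TPM against 50.05 and 57.4 TPM (3.94 ± 0.22, adjusted p = 8.1e-05), with Tubb2a at 34.6 and 47.2 TPM against 263 and 309 TPM.

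Of 29 tight junction and cadherin genes 16 rose (after median-ratio scaling 12 and 2). Tjp3, a scaffold of the tight junction, rose by 2.23, the gap junction gene Gja1 went from 0.290 and 0.101 TPM to 4.56 and 4.66 TPM, and Cldn4, a claudin of ducts, from 0.0204 and 0 TPM to 3.14 and 4.23 TPM. Epcam, which binds claudins, did not pass at 1.22 and 1.39 TPM (1.13 ± 0.43, adjusted p = 0.077). Junction genes gave 10 rises without either DDC fed sample. Of 20 integrins 15 rose (12). The leukocyte integrins Itgb2, at 0.903 and 0.465 TPM against 11.6 and 14.2 TPM, and Itgax, at 0.0335 and 0.0208 TPM against 2.57 and 3.50 TPM, rose beside the laminin receptor subunit Itga6, at 0.415 and 0.190 TPM against 6.25 and 5.86 TPM. Integrins gave 9 rises without DDC fed sample 0.

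Most matrix genes tested rose. Of 46 matrix and matrix remodeling genes 37 rose and 2 fell (after median-ratio scaling 35 and 2), with a median of 1.92. Nid1, which links laminin to collagen IV in basement membranes, was at 0.947 and 0.232 TPM against 86.9 and 75.6 TPM (5.73 ± 0.28, adjusted p = 4.8e-05), and the macrophage elastase Mmp12 at 0.163 and 0.0218 TPM against 33.9 and 43.3 TPM (5.17 ± 0.18, adjusted p = 1.9e-05). Col3a1 went from 0.486 and 0.259 TPM to 40.4 and 35.2 TPM (4.82 ± 0.20), and Col1a1 from 0.0726 and 0.00928 TPM to 7.98 and 6.92 TPM (3.02 ± 0.19). Both collagens are stellate cell and fibroblast markers, whose sums rose with them. The genes that fell were Col27a1, a minor fibrillar collagen, from 52.8 and 37.4 TPM to 3.68 and 3.68 TPM (-3.28 ± 0.25, adjusted p = 0.00020), and the laminin chain Lama3, from 8.86 and 3.80 TPM to 0.566 and 0.449 TPM (-2.19 ± 0.32, adjusted p = 0.0022).

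In the list of liver-enriched transcription factors Hnf4a and Cebpa did not pass the test, Elf3 and Klf6 rose, and Onecut1 fell. Not all members were abundant in normal fed samples, and Elf3, Klf6 and Sox4 were low there. Of the 28 members tested 8 rose and 1 fell (after median-ratio scaling 6 and 5), with a median of 0.18. In shares this was 28.6% and 3.57%, against 34.4% and 3.01% of all genes. Hnf4a was at 371 and 193 TPM in normal fed and at 273 and 251 TPM in DDC fed samples, inside the range of the normal fed samples, and Cebpa at 417 and 196 TPM against 212 and 228 TPM. Elf3, an epithelial ETS factor, went from 0.645 and 0.424 TPM to 69.5 and 102 TPM (5.80 ± 0.39, adjusted p = 0.00013), Klf6 from 1.73 and 0.764 TPM to 76.1 and 121 TPM (5.47 ± 0.31) and Sox4, a partner of Sox9 in duct development, from 0.0768 and 0.0116 TPM to 3.94 and 5.98 TPM (2.49 ± 0.21). Onecut1 (HNF6), which acts in hepatocytes and ducts, fell from 144 and 26.1 TPM to 10.2 and 10.4 TPM (-2.47 ± 0.73, adjusted p = 0.038), a call lost without DDC fed sample 0 or sample 1 (0.14 and 0.13). Cebpa fell with median-ratio scaling (-1.06, adjusted p = 0.035) and without normal fed sample 1 (-0.92, adjusted p = 0.025). Among the 28 factors there were 14 rises without normal fed sample 0, 5 falls without sample 1 and 5 rises without DDC fed sample 0.

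Of 35 nuclear receptors 9 rose (after median-ratio scaling 3 and 6). The share that rose was 25.7% against 34.4% of all genes (8.57% against 20.4% with that scaling). Pparg, the fat storage receptor, was at 1.97 and 0.632 TPM against 21.3 and 18.2 TPM (3.23 ± 0.30, adjusted p = 0.00041), and the retinoic acid receptors Rarg and Rarb rose by 2.43 and 1.61. The bile acid and xenobiotic receptors Nr1h4 and Nr1i2 did not pass, with Nr1h4 at 114 and 101 TPM against 94.0 and 112 TPM. Of 19 clock genes 4 rose (1 rose and 8 fell), or 21.1% against the same 34.4%. Among the 4 the kinase Csnk1e went from 4.81 and 3.10 TPM to 13.5 and 16.1 TPM (1.69 ± 0.24, adjusted p = 0.0020). Arntl and Nr1d1, the positive and negative arms of the loop, did not pass. Nuclear receptors gave 5 and 4 rises without DDC fed sample 0 and sample 1 and 21 without normal fed sample 0. Clock genes gave 2 rises without either DDC fed sample and 7 without normal fed sample 0.

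Immediate early genes, which respond within minutes to growth factors and stress, were higher in both DDC fed samples than in both normal fed samples in all 29 tested (62.6% of all genes were). Of these 26 rose (21 with median-ratio scaling), with a median of 2.2. Atf3 was at 7.71 and 4.59 TPM against 81.5 and 194 TPM (4.19 ± 0.46, adjusted p = 0.00074), Fos at 59.5 and 28.8 TPM against 269 and 514 TPM (3.14 ± 0.44, adjusted p = 0.0021), and Egr1 at 56.3 and 29.2 TPM against 145 and 253 TPM (2.21 ± 0.41, adjusted p = 0.0064). Jun was at 152 and 102 TPM against 300.0 and 488 TPM (1.61 ± 0.36, adjusted p = 0.013), a call lost with median-ratio scaling (0.93, adjusted p = 0.071) and without DDC fed sample 1 (0.11). The DDC fed samples were apart as well: sample 1 was above sample 0 in 27 of the 29 genes. Myc, at 22.9 and 2.44 TPM against 32.7 and 54.7 TPM, did not pass (2.26 ± 0.81, adjusted p = 0.068; 3.66 without normal fed sample 0, adjusted p = 6.7e-04). The rises numbered 17 without DDC fed sample 1, when Egr1 did not pass (0.051).

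Genes of the growth hormone axis, which drives adult liver gene expression, and of local growth factors changed in both directions. Of 25 genes of the growth hormone and insulin-like growth factor axis 11 rose and 2 fell (after median-ratio scaling 5 and 6). The growth hormone receptor Ghr fell from 722 and 641 TPM to 233 and 238 TPM (-1.53 ± 0.29, adjusted p = 0.0075; 0.061 and 0.059 without DDC fed sample 0 and sample 1). Its target Igf1 did not pass, at 1232 and 1046 TPM against 883 and 888 TPM (-0.36 ± 0.21; -1.04 with median-ratio scaling, adjusted p = 0.010). The binding protein genes that rose were Igfbp7, from 26.5 and 7.23 TPM to 176 and 167 TPM, and Igfbp1, from 30.0 and 74.4 TPM to 224 and 236 TPM, and Igfbp1 did not pass with median-ratio scaling (1.58, adjusted p = 0.069). The axis had 3 rises without either DDC fed sample and 6 falls without normal fed sample 1.

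Of 25 EGF and HGF ligands and receptors 11 rose and 1 fell (after median-ratio scaling 8 and 2). The ErbB ligands Nrg1, from 0.178 and 0.163 TPM to 19.2 and 20.2 TPM (4.14 ± 0.17, adjusted p = 2.6e-05), Btc, from 0.568 and 0.291 TPM to 13.2 and 10.7 TPM (3.18 ± 0.20), and Hbegf, from 0.450 and 0.248 TPM to 5.86 and 10.96 TPM (2.75 ± 0.31), rose. The receptor Egfr was lower in both DDC fed samples, at 346 and 117 TPM against 69.4 and 48.6 TPM, and just missed the threshold (-1.77 ± 0.58, adjusted p = 0.051; -2.46 with median-ratio scaling, adjusted p = 0.015). Hgf, a stellate cell product and one of the markers above, rose by 3.48 to 17.98 and 15.8 TPM, and its receptor Met did not pass. Fgf1 fell from 93.4 and 61.3 TPM to 10.4 and 10.1 TPM (-2.76 ± 0.27, adjusted p = 0.00046). In this list 17 rose without normal fed sample 0 and 7 without either DDC fed sample.

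Of 36 TGF-beta, activin and BMP genes 21 rose and 1 fell (after median-ratio scaling 16 and 2). The receptor Tgfbr2 was at 2.34 and 0.788 TPM against 52.0 and 39.0 TPM (4.23 ± 0.33, adjusted p = 0.00021), and the activin antagonist follistatin (Fst) at 1.28 and 2.55 TPM against 30.8 and 47.7 TPM (3.79 ± 0.37). Inhbc, a liver activin subunit, fell from 84.6 and 59.98 TPM to 35.2 and 31.9 TPM (-1.07 ± 0.26, adjusted p = 0.019; 0.095 and 0.13 without DDC fed sample 0 and sample 1). Of 22 Notch genes 12 rose and 1 fell (8 and 1). The Notch target Hes1 was at 16.2 and 8.38 TPM against 73.5 and 81.2 TPM (2.62 ± 0.31, adjusted p = 0.00097), and Notch1 at 2.02 and 1.32 TPM against 9.04 and 5.53 TPM (1.61 ± 0.27). Hes6, which antagonises Hes1, fell from 136 and 96.8 TPM to 52.1 and 47.8 TPM (-1.19 ± 0.22, adjusted p = 0.0067; 0.054 and 0.074 without DDC fed sample 0 and sample 1). TGF-beta genes gave 13 and 14 rises without DDC fed sample 0 and sample 1, and Notch genes 5 and 4.

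Genes of both zones of the liver lobule changed in either direction, and falls took a larger share of both lists than of all genes. Of 25 Wnt targets and pericentral genes, those of hepatocytes near the central vein, 9 rose and 3 fell (after median-ratio scaling 6 and 9). Cyp2e1 was at 8193 and 4389 TPM against 727 and 903 TPM (-2.89 ± 0.42, adjusted p = 0.0022), the glutamate transporter Slc1a2 at 23.6 and 11.9 TPM against 1.62 and 2.54 TPM (-2.55 ± 0.35), and Rgn at 1371 and 1091 TPM against 415 and 533 TPM (-1.38 ± 0.31; lost without DDC fed sample 0 or sample 1, adjusted p = 0.14 and 0.071). Glutamine synthetase (Glul), at 228 and 108 TPM against 81.1 and 75.0 TPM, did not pass (-1.0 ± 0.36, adjusted p = 0.069; -1.68 with median-ratio scaling, adjusted p = 0.0055), nor did the Wnt feedback gene Axin2. Of 25 periportal genes 3 rose and 2 fell (1 and 12), with a median of -0.23. Hal, which degrades histidine, fell from 167 and 98.7 TPM to 53.4 and 58.4 TPM, and Hsd17b6 from 205 and 241 TPM to 117 and 119 TPM (-1.19 and -0.91). Neither fall passed without DDC fed sample 0 or sample 1 (adjusted p from 0.10 to 0.13), and the test then called 0 and 1 periportal rises. The falls numbered 6 pericentral and 10 periportal genes without normal fed sample 1, and 7 periportal genes rose without sample 0.

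Amino acid transporters rose in 15 of 30 tested, with 1 fall, Slc1a2 (after median-ratio scaling 9 and 1). The neutral amino acid transporter Slc1a4 was at 0.691 and 0.465 TPM against 29.2 and 24.5 TPM (4.14 ± 0.25, adjusted p = 0.00010), the creatine transporter Slc6a8 at 1.68 and 0.880 TPM against 19.6 and 16.3 TPM (3.07 ± 0.34), and Slc7a7, an exporter of cationic amino acids, at 1.46 and 0.780 TPM against 10.99 and 14.1 TPM (2.69 ± 0.24). The rises numbered 8 without either DDC fed sample. The chart of the gene lists sets these counts beside each other: the share of members that rose was above the 34.4% of all genes for 27 of the 45 lists, and the share that fell was above 3.01% for 17. After median-ratio scaling the share that rose was above 20.4% for 29 lists and the share that fell above 11.9% for 19.

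**Figure D5:**
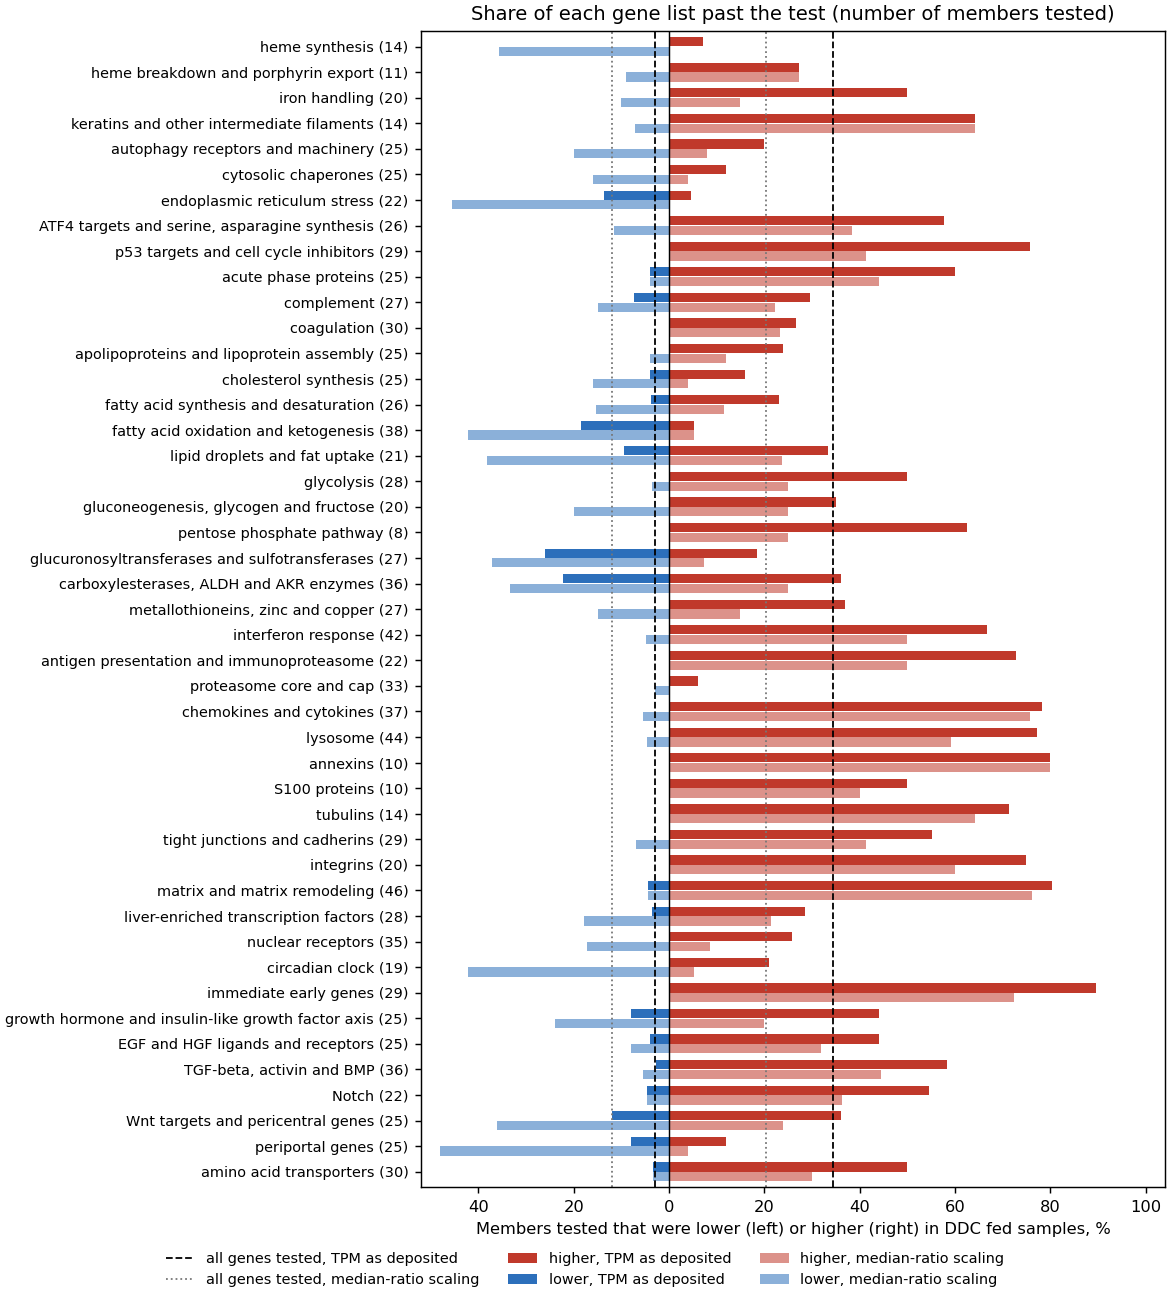
Percentage of tested members of each gene list that rose (right) or fell (left) in DDC fed samples, with the number tested in brackets. Dark bars are TPM as deposited and pale bars median-ratio scaling; dashed lines mark the 34.4% and 3.01% of all genes tested that rose and fell in TPM and dotted lines the 20.4% and 11.9% with that scaling, and the pale bars show more falls, above all among periportal, endoplasmic reticulum stress, oxidation and clock genes.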

How the data were processed

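Polyadenylated RNA of 6 mouse hepatocyte samples was sequenced as stranded libraries, per the labels' protocols. The authors deposited TPM (transcripts scaled to a total of 1000000 in each sample) for 48432 genes. The submitters' processing notes list STAR 2.4.2a, Cuffdiff 2.2.1, HTSeq, DESeq2, Trimmomatic, Picard 1.119 and bcl2fastq 2.17.1.14, with the build GRCm38. Which tool made the table, and with which annotation, is not given in the sources used here. No counts are in the table, so depth and counting error are unknown. A column was tied to a group but not to a single library, since columns and titles are numbered differently. Gene identifiers were matched to GENCODE M21 (48053 matched).

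Genes were kept if 2 or more of the 6 samples reached 1 TPM, and 80 genes at 0 in both samples of a group but at 100 TPM or more elsewhere were left out, which left 14235. A linear model of log2(TPM + 1) with 1 mean for each of the 3 groups was fitted with limma 3.58.1 in R 4.3.3 (3 residual degrees of freedom, trended empirical Bayes variance). P-values are two-sided and adjusted by Benjamini and Hochberg over all genes tested, with a threshold of 0.05. The fit was tested on simulated data. The members of each gene list, the lists and the cell type markers were chosen with earlier results of these data known. Named genes are the 12 largest rises and falls (ranked by the smallest of the 4 differences between samples, in genes whose higher group averaged 10 TPM or more, predicted genes left out), a panel, up to 5 members of each list with the smallest adjusted p, and cell type markers. Genes named for a count of falls or beyond these rules, such as Krt20, Saa4, C8b, C9, G0s2, Ugt3a1, Akr1c14, Col27a1, Lama3, Onecut1, Rgn, Blvrb, Ubd and Slc22a7, were picked after their values were seen.

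Other settings tried were pseudocounts of 0.1 and 5, all genes unfiltered, genes averaging 5 TPM or more, median-ratio scaling, correction for exon length, genes listed at 0 kept, only the 4 adult samples, the replicate number as a block, an added 2-fold limit, and each adult sample left out in turn. When a sample is left out, the one that remains in its group is taken to have the spread of the other groups. Rescaling without the 80 genes and to nuclear protein-coding genes alone were added after seeing the data. Promoter sequences came from RefSeq (GRCm38.p6).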

Additional observations from a re-analysis of the deposited data

How the results depend on the processing

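The count of rises was 4895 and that of falls 428. With median-ratio scaling they were 2900 and 1691, and with a fold change of at least 2 they were 3146 and 287. With a mean of at least 5 TPM they were 3420 and 252. Leaving out 1 adult sample gave 2510 to 7960 rises and 205 to 982 falls. Other settings stayed within 1.5 times, from 3802 to 5231 rises and from 317 to 487 falls. With the replicate number as a block in the fit 5112 rose and 487 fell, and 5 named genes then passed in addition. Whether the numbers pair the samples is not known, and 2 samples a group are too few to settle it. The deviations of samples with the same number were correlated across 14235 genes, for 3 pairs of groups. The correlation was 0.225 between normal fed and DDC fed, 0.169 between normal fed and E18, and 0.0616 between DDC fed and E18.

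Of 203 named genes 31 lost their call without DDC fed sample 0 and 31 without sample 1, against 2 and 4 without normal fed sample 0 and sample 1. Median-ratio scaling ended the call of 11 and gave 7 more, no filter ended 19 and the fit to the 4 adult samples 13. No named gene that passed in TPM turned its direction under the settings run. Genes that did not pass turned as follows, and the cause was not tested. With median-ratio scaling the log2 differences were Fech -0.52, Alas1 -0.68, Blvra -0.40, Blvrb -0.18, Orm1 -0.31, Cpt1a -0.43, Ppara -0.66, Nr1i2 -0.06 and Met -0.10. With the exon-length correction they were Alas1 -0.06, Ppara -0.01, Krt7 -0.02 and Nr1h4 0.03. Rescaling without the genes listed at 0, chosen after seeing the data, gave Alas1 -0.07 and Ppara -0.07, and rescaling to nuclear protein-coding genes, also chosen then, gave Alas1 -0.08 and Ppara -0.07. Leaving out each adult sample in turn, the log2 difference ran from -0.20 to 0.52 for Fech, -0.94 to 0.95 for Alas1, -0.01 to 0.53 for Blvra, -0.00 to 1.0 for Blvrb, -0.43 to 0.15 for Map1lc3b, -0.42 to 0.93 for Cpt1a and -0.56 to 0.58 for Ppara. It ran from -0.23 to 0.01 for Pck1, -0.50 to 0.44 for Hnf4a, -0.92 to 0.16 for Cebpa and -0.18 to 0.06 for Nr1h4.

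The depth of each value is unknown, so the precision of low values, such as those under 1 TPM, cannot be judged.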
